A study of Mus musculus with 15 samples.

Results

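The interleukin-1 axis described here is 8 genes chosen by symbol and looked up in the table of cecal expression: Il1rn (the receptor antagonist), Il1a, Il1b and Il33 (ligands), Il1r1, Il1rap and Il1rl1 (signalling receptors) and Il1r2 (a decoy receptor). All 8 were found among 45804 genes with a unique symbol, and 6 of them were expressed highly enough to be tested. Ceca came from C57BL/6 wild-type mice, labelled as 20 weeks old, that had received repeated oral gavage over 30 days. AIMD mice (antibiotic-induced microbiome depletion, n = 7) received ampicillin, vancomycin, neomycin, metronidazole and the antifungal amphotericin B, and vehicle-treated mice (n = 8) received water. The study's methods describe male mice that shared cages, and neither the cage nor the hour of sacrifice of a mouse is in the labels. Emptied whole ceca were sequenced, so each value is a mixture of epithelium, immune cells and connective tissue, and more cells of a type cannot be told apart from more RNA per cell. Values are FPKM (reads on a gene scaled by the length of its exons and by the depth of the mouse), and the reads on genes ranged from 8679679 to 18108586 in AIMD mice and from 4372423 to 14405949 in vehicle-treated mice.

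Interleukin-1α and interleukin-1β bind the receptor encoded by Il1r1, which then recruits the accessory chain encoded by Il1rap and signals through MyD88 to NF-κB and to MAP kinases. The receptor antagonist occupies the same receptor without recruiting the accessory chain, and the decoy receptor binds ligand but has no signalling domain. Interleukin-33, a nuclear protein that is released from damaged cells, uses the same accessory chain together with ST2, the receptor encoded by Il1rl1, which is carried by mast cells, group 2 innate lymphoid cells and regulatory T cells of the gut.

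The antagonist gene Il1rn was 5.36 times as high in AIMD mice, the ST2 gene Il1rl1 was 2.50 times as high, and neither the ligand genes Il1b and Il33 nor the receptor genes Il1r1 and Il1r2 passed the test. In limma on log2(FPKM + 0.5), with Benjamini–Hochberg adjustment over 11971 genes, 2 of the 6 tested members were called higher in AIMD mice and 0 lower at an adjusted p under 0.05. Of all genes tested, 19.4% were called higher and 16.6% lower, so that the members' share of higher calls is to be read against a cecum in which 36.0% of genes passed. At an unadjusted p under 0.05 the counts were 3 higher and 0 lower, where 24.2% of all genes were higher and 21.7% lower, and limma voom, run on read counts worked back from the FPKM, gave 2 higher (18.7% of all genes) and 0 lower (18.5%). The plot of every mouse shows the members on their own scales.

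**Figure D1:**
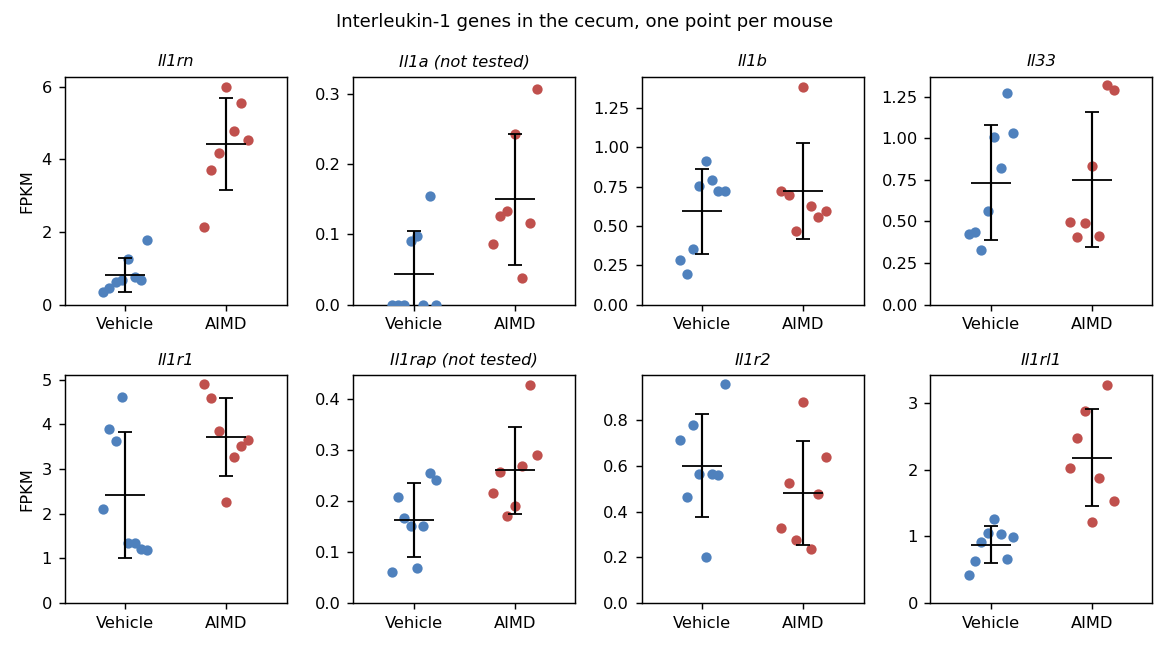
FPKM (linear axis from 0) of the 8 interleukin-1 genes in vehicle-treated mice (blue, n = 8) and AIMD mice (red, n = 7), 1 point per mouse, with the mean (horizontal line) and SD (bar). Il1rn is the member whose groups are fully apart, with AIMD mice from 2.15 to 5.99 and vehicle-treated mice from 0.344 to 1.78.

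Il1rn and Il1rl1 can each be transcribed from more than 1 start, and the 250 bases before 2 RefSeq starts of each (GRCm38.p6) are shown because these are the members that were higher in AIMD mice. For Il1rn, different first exons give a secreted and an intracellular antagonist. For Il1rl1, different starts and ends give membrane-bound ST2 and a soluble form that captures interleukin-33. The FPKM is a value per gene and does not separate these forms. Each window is written 5′ to 3′ on the plus strand, and capitals mark a match to a searched motif.
Il1rn upstream start, chr2:24336610-24336859: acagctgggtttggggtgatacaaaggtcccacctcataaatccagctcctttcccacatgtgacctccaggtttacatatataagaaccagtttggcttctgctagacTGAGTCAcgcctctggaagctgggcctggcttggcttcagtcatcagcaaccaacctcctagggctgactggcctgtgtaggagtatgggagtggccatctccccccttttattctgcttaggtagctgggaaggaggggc
Il1rn downstream start, chr2:24345041-24345290: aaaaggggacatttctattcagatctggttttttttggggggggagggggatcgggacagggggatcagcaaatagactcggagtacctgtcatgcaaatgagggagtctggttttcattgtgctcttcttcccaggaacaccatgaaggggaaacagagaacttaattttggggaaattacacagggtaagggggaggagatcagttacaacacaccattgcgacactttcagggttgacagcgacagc
Il1rl1 upstream start, chr1:40429320-40429569: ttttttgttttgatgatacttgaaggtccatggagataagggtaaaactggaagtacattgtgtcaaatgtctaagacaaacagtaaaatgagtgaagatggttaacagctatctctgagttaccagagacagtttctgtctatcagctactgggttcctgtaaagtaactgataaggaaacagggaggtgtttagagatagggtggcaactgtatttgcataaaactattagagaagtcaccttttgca
Il1rl1 downstream start, chr1:40439379-40439628: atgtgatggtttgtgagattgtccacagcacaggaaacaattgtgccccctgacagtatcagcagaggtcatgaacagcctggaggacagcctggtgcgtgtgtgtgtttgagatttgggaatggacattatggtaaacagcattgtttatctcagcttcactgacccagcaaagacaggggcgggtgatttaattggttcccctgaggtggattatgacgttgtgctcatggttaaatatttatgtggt

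The motifs searched, on both strands, were the kappaB motif, AP-1 (TGANTCA), the PU.1 core (GAGGAA) and the E-box (CACGTG). Among 32851 RefSeq windows of the same length, 7.25% held the kappaB motif, 6.75% AP-1, 23.25% the PU.1 core and 6.02% the E-box. The upstream Il1rn window held 1 AP-1 match, which begins 141 bases before the start, and the other 3 windows printed held no match to the 4 motifs. Over all 13 windows of the 8 members, Il1a had 1 AP-1 match and 1 PU.1 core, the second Il1r1 window had 1 kappaB match, and Il1r2 had 2 E-boxes. A match is a description of these letters alone.

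The antagonist gene Il1rn spans bases 24336853 to 24351494 of chromosome 2, on the plus strand (GRCm38, GENCODE M21). Its FPKM in AIMD mice was 2.15 at the lowest, 4.55 at the median and 5.99 at the highest, and in vehicle-treated mice these values were 0.344, 0.686 and 1.78. The lowest AIMD mouse was thus above the highest vehicle-treated mouse. Il1rn was the only 1 of the 6 tested members whose groups were fully apart, which 8.56% of all genes tested showed, 5.26% with AIMD mice higher and 3.3% with AIMD mice lower. AIMD mice averaged 4.42 ± 1.27 (SD, n = 7) and the vehicle group 0.825 ± 0.469 (SD, n = 8), and limma gave a log2 fold change of 1.91 with a standard error of 0.21 (Benjamini–Hochberg adjusted p = 7.75e-06). The exact two-sided permutation test over mice gave p = 0.000155, the smallest that 7 against 8 mice allow. Behind these values stood 208 to 440 reads per AIMD mouse and 14 to 43 reads per vehicle-treated mouse, and leaving out 1 mouse at a time gave log2 fold changes of 1.82 to 2.05.

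Il1a, which encodes interleukin-1α, a ligand held inside epithelial and other cells until they are damaged, was close to the limit of detection. It had 1 to 7 reads in each AIMD mouse, 26 in all, and 0 to 2 reads in each vehicle-treated mouse, 5 in all. No read was found in 5 vehicle-treated mice. A count of 3 reads in these mice would have been an FPKM of 0.112 to 0.347, and true levels up to about there can still give 0 reads. Its FPKM was 0.0377, 0.127 and 0.308 (lowest, median and highest) in AIMD mice and 0, 0 and 0.155 in vehicle-treated mice, and the groups overlapped. Il1a did not pass the filter on low values, and when all genes above 0 were tested (9.9% called higher and 7.47% lower) its limma adjusted p was 0.0589, with an exact permutation p of 0.0152. Per read sequenced, Il1a was 3.55 times as frequent in AIMD mice, with a 95% exact interval of 1.34 to 11.8 that covers counting error only. Its exons overlap the span of Gm14023, a gene on the opposite strand that had an FPKM of 0.109 to 0.943 over the mice. Transcripts of other genes contain 9.14% of its 50-base stretches, on either strand.

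Il1b, which encodes interleukin-1β, a ligand made mainly by macrophages and neutrophils and cut by caspase-1 before release, did not pass the test. Its FPKM ran from 0.470 over a median of 0.625 to 1.39 in AIMD mice and from 0.194 over 0.720 to 0.914 in vehicle-treated mice. The ranges overlapped, and the median was lower in AIMD mice while the mean was higher, at 0.721 ± 0.305 (SD, n = 7) against 0.591 ± 0.270 (SD, n = 8). In limma the log2 fold change was 0.17 ± 0.18 (standard error), at an adjusted p of 0.475. The highest value belonged to AIMD replicate 4, without which the log2 fold change was 0.06. The same mouse had the highest FPKM of Ly6g, a neutrophil surface marker, at 24.7, where the other AIMD mice had at most 2.39. The neutrophil granule genes S100a8 and S100a9, named after their values were seen, were also highest in it, at 2.42 and 2.53 on 14 and 11 reads. Other listed neutrophil genes were too low to test and went both ways. Ltf had a higher mean FPKM in AIMD mice (0.258 against 0.0376), and Cxcr2 and Camp had lower means (0.0124 against 0.0204 and 0.0584 against 0.0956). The source of the high Il1b value in AIMD replicate 4 was not tested. Il1b rested on 13 to 24 reads per AIMD mouse and 4 to 16 per vehicle-treated mouse.

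Il33 encodes interleukin-33, which fibroblasts, endothelium and some epithelial cells store in the nucleus. Its FPKM was 0.404, 0.496 and 1.32 (lowest, median and highest) in AIMD mice and 0.327, 0.690 and 1.27 in vehicle-treated mice. The groups covered nearly the same range, with 14 to 50 reads per AIMD mouse and 7 to 24 per vehicle-treated mouse. Mean FPKM was 0.750 ± 0.406 (SD, n = 7) against 0.734 ± 0.346 (SD, n = 8), and limma put the log2 fold change at 0.01 with a standard error of 0.21 (adjusted p = 0.982).

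Il1r1, which encodes the signalling receptor for both interleukin-1 ligands, was the most abundant receptor of the 8 genes in both groups. Its FPKM was 2.26, 3.66 and 4.90 (lowest, median and highest) in AIMD mice and 1.19, 1.72 and 4.62 in vehicle-treated mice. Only 1 AIMD mouse was above all vehicle-treated mice, although 5 vehicle-treated mice were below all AIMD mice. AIMD mice had 1.54 times the mean of the vehicle group, at 3.72 ± 0.869 (SD, n = 7) against 2.41 ± 1.41 (SD, n = 8). The log2 fold change of 0.65 (standard error 0.25) missed the threshold, with a limma adjusted p of 0.0545. It passed without AIMD replicate 4 (adjusted p = 0.0347) and without vehicle replicate 2, 3 or 4 (0.0253, 0.0340 and 0.0170), and the range over all 15 mice left out was 0.0170 to 0.108. With the score of the clock genes as a covariate the adjusted p was 0.00392 (22.6% of all genes were then called higher and 19.9% lower), whereas with the number of reads as a covariate the log2 fold change was 0.24 (adjusted p = 0.531, with 13.3% of all genes called higher and 12.1% lower).

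Il1rap encodes the accessory chain that both Il1r1 and ST2 need for signalling. It had a low FPKM in every mouse, from 0.172 over a median of 0.257 to 0.429 in AIMD mice and from 0.0599 over 0.159 to 0.255 in vehicle-treated mice, and the ranges overlapped. The means were 0.260 ± 0.0857 (SD, n = 7) and 0.163 ± 0.0724 (SD, n = 8), so that Il1rap did not pass the filter on low values. When all genes were tested, its log2 fold change was 0.20 (limma adjusted p = 0.121), and the exact permutation p was 0.0281.

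Il1r2 encodes the decoy receptor, which takes up interleukin-1 without signalling. Its FPKM was 0.234, 0.479 and 0.881 (lowest, median and highest) in AIMD mice and 0.203, 0.564 and 0.958 in vehicle-treated mice. The ranges coincided almost fully, on 6 to 14 reads per AIMD mouse and 2 to 12 per vehicle-treated mouse. Its log2 fold change in limma was -0.17 with a standard error of 0.17 (adjusted p = 0.444).

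Il1rl1 encodes ST2, the receptor for interleukin-33, and lies on chromosome 1, from 40429570 to 40465415 on the plus strand, in the same chromosome region as Il1r2 and Il1r1. Its FPKM was 1.22, 2.03 and 3.27 (lowest, median and highest) in AIMD mice and 0.414, 0.957 and 1.26 in vehicle-treated mice. In 6 of the 7 AIMD mice the value exceeded that of every vehicle-treated mouse, and the lowest AIMD mouse lay just under the highest vehicle-treated mouse. Mean FPKM was 2.18 ± 0.733 (SD, n = 7) against 0.872 ± 0.278 (SD, n = 8), which limma gave as a log2 fold change of 0.94 with a standard error of 0.18 (adjusted p = 0.000732). The exact permutation test over mice gave p = 0.000311. Without any 1 of the mice the log2 fold change was 0.85 to 1.04, and the reads behind it numbered 70 to 376 per AIMD mouse and 21 to 81 per vehicle-treated mouse.

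**Figure D2:**
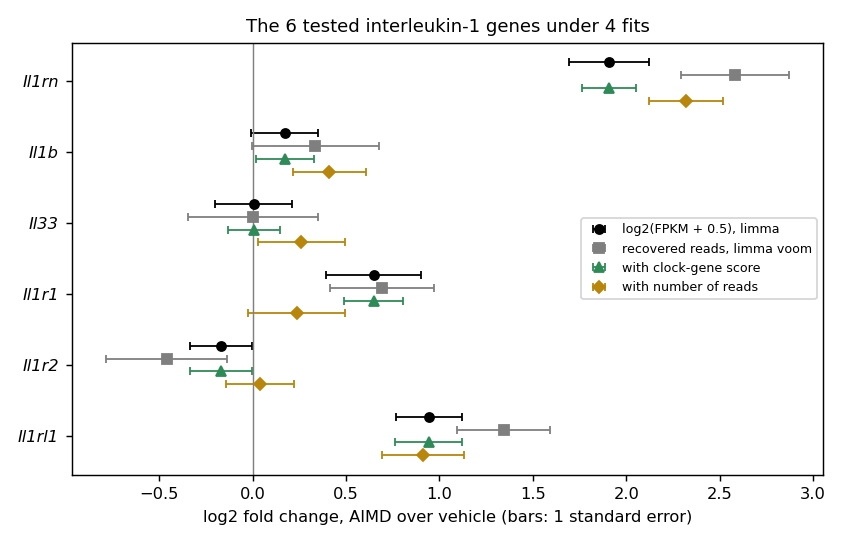
Log2 fold change (AIMD over vehicle-treated mice, horizontal axis) of the 6 tested members under 4 fits, with bars of 1 standard error. Il1rn and Il1rl1 lie to the right of 0 in every fit, at 1.91 and 0.94 in the limma fit of log2(FPKM + 0.5), whereas Il1r1 moves from 0.65 to 0.24 when the number of reads is a covariate.

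By mean FPKM, a level per exon length, the antagonist stood first among the members in AIMD mice and the third in vehicle-treated mice. In AIMD mice Il1rn had the highest mean, followed by Il1r1, Il1rl1, Il33, Il1b, Il1r2, Il1rap and Il1a. Il1rn was above Il1r1 in 5 of 7 mice and Il33 was above Il1b in 3 of 7, so that these neighbours did not separate, whereas Il1r1 was above Il1rl1 and Il1rl1 above Il33 in all 7. In vehicle-treated mice Il1r1 came first and was above Il1rl1 in all 8 mice. Il1rl1, Il1rn, Il33, Il1r2 and Il1b then followed without a clear order, each above the next in 4 to 6 of 8 mice, before Il1rap and Il1a.

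The balance of antagonist to ligand, taken as the FPKM of Il1rn over the sum of Il1a and Il1b in each mouse, was 2.66, 5.06 and 8.24 (lowest, median and highest) in AIMD mice and 0.788, 1.23 and 2.47 in vehicle-treated mice. The 2 groups did not overlap in this ratio, which rests on the same Il1rn values as above and was given no test of its own. For the signalling over the decoy receptor, Il1r1 over Il1r2, the values were 2.57, 8.75 and 14.9 in AIMD mice and 1.24, 3.80 and 8.40 in vehicle-treated mice, and the groups overlapped. Il1rl1 over its ligand Il33 gave 1.18, 4.09 and 6.13 in AIMD mice and 0.523, 1.26 and 2.81 in vehicle-treated mice, also with overlap.

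Within each group, the mice fell into 2 sets by the expression of the circadian clock genes, and several members differed between these sets. The score was the first principal component of 13 clock genes, centred within groups, and took 75.5% of their variance. It was above 0 in AIMD replicates 1 to 3 and vehicle replicates 1 to 4 and below 0 in the other 8 mice. Over the 15 mice, centred within groups, the correlation of the log2 value with the score was 0.82 for Il1r1, -0.82 for Il33, -0.79 for Il1rn and -0.57 for Il1b, but -0.10 for Il1rl1 and -0.08 for Il1r2. The number of reads also went with these genes, with correlations with its log2 of -0.71 for Il1rn, 0.59 for Il1r1, -0.52 for Il1b and -0.46 for Il33, and what the clock genes and the number of reads each contributed was not tested.

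In vehicle-treated mice, Il1r1 was 2.10 to 4.62 FPKM where the score was above 0 and 1.19 to 1.34 where it was below, without overlap. In AIMD mice the corresponding ranges were 3.85 to 4.90 and 2.26 to 3.66, again without overlap. Between treatments, the ranges of Il1r1 did not overlap where the score was below 0 and overlapped where it was above 0, in sets of 3 or 4 mice that were given no test. Il33 ran the other way in vehicle-treated mice, with 0.327 to 0.560 above 0 and 0.820 to 1.27 below 0, while its AIMD ranges of 0.404 to 0.496 and 0.413 to 1.32 overlapped. Il1rn was lower where the score was above 0 in both groups, at 2.15 to 4.19 against 4.55 to 5.99 in AIMD mice and at 0.344 to 0.682 against 0.690 to 1.78 in vehicle-treated mice. As the Il1rn groups were fully apart over all mice, they were bound to be apart within each set, which adds nothing further. Where the score was above 0, Il1rl1 was 2.03 to 2.87 FPKM in AIMD mice against 0.414 to 1.06 in vehicle-treated mice. Where the score was below 0, its ranges overlapped, at 1.22 to 3.27 against 0.664 to 1.26.

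**Figure D3:**
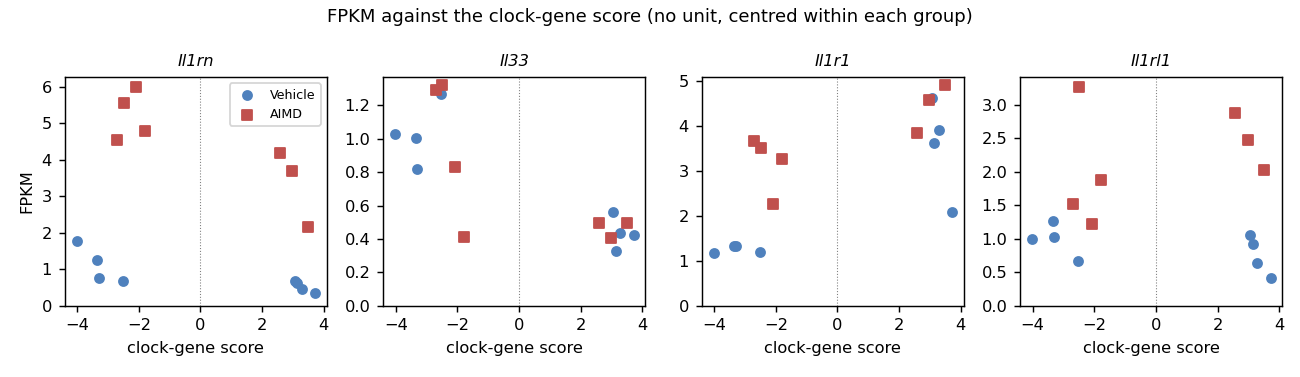
FPKM (linear axis) of Il1rn, Il33, Il1r1 and Il1rl1 against the clock-gene score (no unit, centred within each group), 1 point per mouse, with AIMD mice as red squares and vehicle-treated mice as blue circles. The mice stand in 2 sets on either side of 0, and Il1r1 in vehicle-treated mice is 1.19 to 1.34 on the left and 2.10 to 4.62 on the right.

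The genes whose log2 values, centred within groups, followed a member most closely over the 15 mice were found among all genes tested. For Il1rn, Pik3cd (r = 0.89) and Slc6a20a (0.87) were among them, and for Il1r1 they were Thumpd1 (0.93), Knop1 (0.91) and Arhgap20 (0.90). Il33 was followed by Gbp7 (0.92), Msr1 (0.91) and Lhfp (0.90), and Il1b by Smim9 (0.93), Nufip2 (0.85) and Mtrf1l (0.84). For Il1r2 they were H2-Ab1 (0.89), Cldn13 (0.88) and Cd72 (0.88), and for Il1rl1 Fst (0.79) led. Among the members themselves, Il33 and Il1r1 had the most negative correlation, at -0.63, and Il1rn and Il33 the most positive, at 0.59. All these points share a library with their clock genes and depth, and the correlations describe 15 mice only.

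Of the 13 other genes of the interleukin-1 family listed, 5 were tested, of which 2 were higher and 1 was lower in AIMD mice (19.4% and 16.6% of all genes), and 5 were listed at 0 in all mice. Il1f8, the symbol in the table for the ligand interleukin-36β, had 0.959, 1.36 and 3.06 FPKM (lowest, median and highest) in AIMD mice and 0, 0.0304 and 0.177 in vehicle-treated mice. The groups did not overlap, and 4 vehicle-treated mice had no read. With 176 reads over the AIMD mice against 5 over the vehicle-treated mice, Il1f8 was 24.0 times as frequent per read sequenced, with a 95% exact interval of 10.1 to 75.0 for counting error only. The limma log2 fold change of 1.81, with a standard error of 0.16 (adjusted p = 7.46e-07), understates the change of so low a gene. With limma voom on the recovered reads the log2 fold change was 3.85. Il1f8 passed the filter on low values through the AIMD mice alone, as no vehicle-treated mouse was above 0.177 FPKM. The filter thus depended on the group for this gene. With no filter, the limma adjusted p of Il1f8 was 4.89e-06. The same limit bears in part on Il18r1, Map3k3, Hpgds and Ly6g, which are called below. Their medians were under the filter value of 0.5 FPKM in vehicle-treated mice (0.319, 0.316, 0.336 and 0.316) and above it in AIMD mice (0.598, 1.08, 0.638 and 1.94). Il1rl2, the receptor for interleukin-36, did not pass the filter, at means of 0.317 in AIMD mice against 0.393.

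Il18, an interleukin-1 family cytokine that epithelial cells hold as a precursor, was far more abundant than any of the 8 members and lower in AIMD mice. Its FPKM was 58.9, 85.1 and 139.6 (lowest, median and highest) in AIMD mice and 50.9, 197.8 and 213.6 in vehicle-treated mice. The groups overlapped through vehicle replicate 8 alone, whose 50.9 was the lowest value of all. The log2 fold change was -0.87 (limma adjusted p = 0.0204) and -1.11 without that mouse. Il18r1, a chain of the interleukin-18 receptor, was higher, at a mean of 0.621 against 0.373 (log2 fold change 0.36, limma adjusted p = 0.0384), a call that held in 13 of 24 alternatives. Il18bp, the soluble antagonist of interleukin-18, and Sigirr, a negative regulator of the receptors, had log2 fold changes of 0.53 (adjusted p = 0.0706) and 0.18 (adjusted p = 0.576).

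Inflammasome and protease genes, whose products mature ligands of the interleukin-1 family, were led by Casp4, Nlrc4 and Casp8. Of 11 tested, 6 were higher and 1 was lower, or 63.6% called with a median log2 fold change of 0.61, beside 36.0% called and a median of 0.01 over all genes. Casp4 (caspase-11, the sensor of bacterial lipopolysaccharide) was 9.53 to 12.5 FPKM in AIMD mice and 2.81 to 5.48 in vehicle-treated mice, without overlap, at a log2 fold change of 1.37. Nlrc4, Casp8 and Capn2, a calpain that can cut the interleukin-1α precursor, followed with 0.89, 0.87 and 0.75. Aim2 and Nlrp1b were also higher, at 0.68 and 0.61, and Nlrp6, an epithelial sensor, was lower, at -0.41. The protease of interleukin-1β itself, Casp1, was at a mean of 173.3 against 136.5 FPKM (adjusted p = 0.0674).

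Signalling genes downstream of the receptors passed in 5 cases higher and 2 lower of 27 tested, or 25.9% beside 36.0% of all genes, with a median log2 fold change of -0.03. Nfkb1, an NF-κB subunit, was 4.84 to 6.05 FPKM in AIMD mice and 1.43 to 4.29 in vehicle-treated mice, without overlap (log2 fold change 0.94, limma adjusted p = 0.00014). The kinases Map3k3 and Map3k7 were higher at 0.82 and 0.45, and Traf6 and Mapk8 at 0.45 and 0.43. Tab2, an adaptor of Map3k7, and Ube2n were lower at -0.50 and -0.44. Myd88, Irak1 and Irak4, the first steps behind the receptor, had log2 fold changes of -0.02, -0.11 and 0.01 and did not pass.

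Of 25 genes listed as induced by interleukin-1 in many cell types, 12 were tested, and 4 were higher and 1 was lower in AIMD mice (41.7%, near the 36.0% of all genes, with a median log2 fold change of 0.25 beside 0.01). Saa3, an acute-phase protein, was 286.2 to 530.6 FPKM in AIMD mice and 60.6 to 185.7 in vehicle-treated mice, and Tnfaip3, an inhibitor of NF-κB, was 3.42 to 6.38 against 0.584 to 1.85, both without overlap. Their log2 fold changes were 1.74 and 1.67, and those of Saa1 and the chemokine Ccl20 were 1.17 and 0.58. Saa1 and Saa2 are near-identical copies, so that the split of reads between them is uncertain. Ptgs2, the inducible cyclooxygenase, was lower at -0.60. Many other signals induce these genes too.

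Genes of the cells that answer interleukin-33 were mostly too low to test, with 5 of 20 tested and Il13, Il9 and Tpsab1 listed at 0 in all mice. Areg, a growth factor of group 2 innate lymphoid cells and epithelium, was called higher at a log2 fold change of 1.00 (39.4 to 73.9 FPKM against 13.5 to 63.2), as was Hpgds, the prostaglandin D synthase of mast cells, with 0.51 (0.382 to 1.33 against 0.144 to 0.681). These 2 of 5 (40.0%) stand beside 36.0% called of all genes, and the call of Hpgds held in 18 of 24 alternatives (adjusted p up to 0.0648). The mast cell genes Kit, Mcpt1 and Mcpt2 had log2 fold changes of -0.28, 0.44 and 0.15 and did not pass. Listed genes too low to test went both ways. Gata3 and Rora had lower mean FPKM in AIMD mice (0.244 against 0.387 and 0.296 against 0.495). Cpa3, Cma1 and Tpsb2 had higher means (0.267 against 0.0548, 0.135 against 0.0158 and 0.139 against 0.0446), on 44, 15 and 19 reads over all mice. The groups overlapped in both genes that passed.

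**Figure D4:**
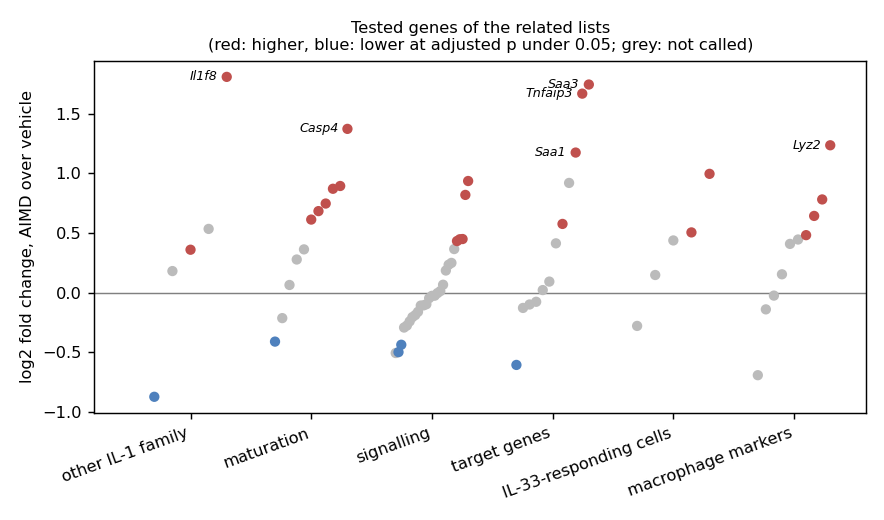
Log2 fold change (AIMD over vehicle-treated mice, vertical axis) of each tested gene in 5 lists around the interleukin-1 axis and in the macrophage markers, 1 point per gene, with red for higher, blue for lower and grey for not called. The maturation list has 6 of 11 genes in red, and the signalling list 5 of 27.

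Some markers of the cells that could carry the members differed between the groups, as did 36.0% of all genes tested. Of the macrophage markers, 4 of 10 tested were higher (Lyz2 1.24, Csf1r 0.78, C1qa 0.64 and Cd68 0.48 in log2 fold change) and 0 were lower, where 19.4% of all genes were called higher. The summed FPKM of the list was 88.0 to 255.0 in AIMD mice and 67.2 to 109.9 in vehicle-treated mice. Lyz2 alone had means of 113.3 and 43.9 FPKM, and so carried much of this sum and of its difference between the groups. Of the markers not called, Mrc1, a receptor of resident macrophages, had means of 1.44 FPKM in AIMD mice against 2.81 (log2 fold change -0.69, limma adjusted p = 0.0516). C1qc and Cd14 had log2 fold changes of -0.14 and -0.02. At an unadjusted p under 0.05 the counts of higher and lower markers were 6 and 1, and limma voom gave 4 and 0. Of 11 neutrophil markers only Ly6g was tested, which was higher (log2 fold change 1.46, and 0.91 without AIMD replicate 4). This call held in 16 of 24 alternatives and was lost with limma voom and with no filter (adjusted p = 0.0746). The neutrophil markers had a summed FPKM of 1.03 to 31.4 in AIMD mice and 0.551 to 1.49 in vehicle-treated mice, with Elane and Ngp at 0 in all mice. The 31.4 was AIMD replicate 4, in which Ly6g alone was 24.7, and the other AIMD mice had at most 4.07. Of 10 lymphocyte markers, 0 were called higher and 2 lower (20.0%, where 16.6% of all genes were called lower). Among those lower was the B cell gene Cd79b, at a log2 fold change of -1.39. The counts were 0 and 3 at an unadjusted p under 0.05, and 0 and 3 with limma voom. Of 12 markers of squamous epithelium, a known source of Il1rn, Trp63, Sprr1b and Ivl were listed at 0 in all mice. Krt5 and Krt14 had means of 0.0301 and 0.0868 FPKM in AIMD mice and 0.0279 and 0.0808 in vehicle-treated mice. Sprr1a and Krt10, the 2 of the 12 that were tested, had means of 43.2 and 2.86 FPKM in AIMD mice and 42.1 and 2.12 in vehicle-treated mice. They passed neither in limma nor in voom, nor at an unadjusted p under 0.05. Of 10 epithelial markers, Krt8 and Vil1 were higher and Muc2 and Krt18 lower (40.0% called). Of 9 stromal markers, Col3a1 was higher and Lum lower (22.2% called). Both shares stand beside 36.0% called of all genes tested. The calls of Krt8, Col3a1 and Lum held in 13, 13 and 12 of 25 alternatives, and those of Vil1, Muc2 and Krt18 in 24, 25 and 25. Over the 15 mice, centred within groups, the summed macrophage markers correlated with Il1rn at 0.54 and with Il1rl1 at 0.04. This sum is in large part Lyz2, and the correlations describe these mice only. The part of each cell type in the values of Il1rn and Il1rl1 was not tested.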

How the data were processed

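Poly-A selected, stranded libraries were made from the ceca of 7 AIMD and 8 vehicle-treated mice. Per the submitters' processing notes and the methods, the authors mapped reads to GRCm38 with STAR and counted them with featureCounts on GENCODE genes. They deposited FPKM per gene and mouse. Tool versions, the strand setting of the counting and the step from counts to FPKM are not given in the sources used here. The authors' own test was DESeq2 with treatment and time of sacrifice.

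Deposited FPKM were scaled by size factors from the median of ratios over 13594 genes (1.01 in every mouse), and 0.5 was added before log2. Tested were the 11971 genes that reached an FPKM of 0.5 in 7 or more mice, with limma 3.58.1 (lmFit, eBayes with trend, R 4.3.3), two-sided, at a Benjamini–Hochberg adjusted p of 0.05. The added 0.5 makes fold changes of low genes too small. FPKM were whole multiples of 1 read for 100% of 24279 genes (within 0.02 reads), and limma voom was run on these reads. Exact permutation tests used all splits of the mice. Other steps used Python 3.11.15. Methods were tested on simulated data.

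Mice were grouped by their labels. The replicate numbers name different mice, as deviations of same-numbered mice correlated at -0.24 to 0.22. The members, the gene lists and the clock-gene score were chosen with earlier results of these data known. Named were all 8 members, up to 4 called genes per list by size of change, the tested genes of the interleukin-1 family, and 3 genes most like each member. Some genes under this rule are counted but not reported by name here. Other genes named, such as listed genes that did not pass, were chosen after their values were seen. The older symbol Il1f8 was matched to interleukin-36β through RefSeq synonyms. Alternatives were other scalings, pseudocounts and filters, voom, a replicate block, covariates and each mouse left out in turn.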

Additional observations from a re-analysis of the deposited data

Results flagged for a closer look

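Over 80 checks of 1 gene in 1 group, 10 had a highest or lowest mouse that stood apart from the rest by Dixon's test, where chance gives about 1 in 20.

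Of the members, Il1b was flagged in AIMD replicate 4, at 1.39 FPKM against 0.470 to 0.720 in the other AIMD mice. Ly6g, the neutrophil marker, was flagged in the same mouse at 24.7 FPKM. In the interleukin-1 family, Il1f8 was highest in AIMD replicate 6, at 3.06 FPKM, and Il18 was lowest in vehicle replicate 8, at 50.9 FPKM.

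Among related genes, Nfkb1 and Nlrc4 were both highest in vehicle replicate 5, at 4.29 and 9.94 FPKM. Areg stood at 63.2 FPKM in vehicle replicate 4, and Csf1r, a macrophage marker, at 1.59 FPKM in vehicle replicate 8. The epithelial genes Muc2 and Krt8 were both highest in vehicle replicate 2, at 143.9 and 723.9 FPKM. What sets these mice apart was not tested.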

How the results depend on the processing

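Il1rn and Il1rl1 were called higher in all 10 alternative limma fits with every mouse, also passed the exact permutation test, and were called in all 15 fits with 1 mouse left out. Their log2 fold changes ranged over the first from 1.56 (pseudocount 1) to 2.58 (voom) and from 0.74 to 1.34. The number of members called higher was 2, and 3, with Il1r1, under the clock-gene covariate. Leaving out each mouse gave 2 to 3 members higher and 0 lower, 1930 to 2407 genes higher and 1603 to 2231 lower over all genes, 2 to 4 other family genes, 6 to 8 signalling, 7 to 8 maturation, 4 to 5 target and 1 to 2 interleukin-33 responding genes. A filter of FPKM at least 1 left 1 family gene and 1 interleukin-33 responding gene called, since fewer genes were tested, and the number of reads as a covariate left 1 of the latter (Areg fell out at adjusted p = 0.0911). With that covariate Il1r2 had a log2 fold change of 0.040 and Sigirr -0.11, opposite in sign to the main values, and neither was called under either fit; the number of reads differs between the groups, so the 2 cannot be told apart. The log2 fold change of Il33, near 0, changed sign in 7 of 15 fits without 1 mouse, within -0.093 to 0.088. The cause of these changes was not tested.

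With the replicate block, which leaves vehicle replicate 8 without a partner, 2388 genes were higher and 2259 lower, members called numbered 2, and the log2 fold changes were 2.03 for Il1rn, 0.96 for Il1rl1 and 0.56 for Il1r1 (adjusted p = 0.0872). The labels give no pairing of mice with the same number. Replicates 1 to 3 had a clock-gene score above 0 in both groups, and replicates 5 to 7 below 0 in both. The block thus overlaps with the clock sets, and the 2 cannot be told apart in this fit. It brought Il18bp past the threshold (0.61, limma adjusted p = 0.0280).

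Depth limits the low members: Il1a, Il1b and Il1r2 had at most 24 reads in a mouse.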
